A study of Mus musculus with 18 samples.

Results

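Of 30583 genes in the count table, 58 were more abundant than in sham-operated mouse hearts 6 h after ligation of a coronary artery and less abundant than in sham hearts at 72 h. They were chosen from CPM, a gene's count divided by all counts of its library and scaled to the same total for every library. For each time, L is the log2 ratio of the mean CPM of the 3 libraries to the sham mean, with 0.5 added to both. A gene was kept where the sham mean was 2 CPM or more, L at 6 h was 0.5 or higher and L at 72 h was -0.5 or lower. Of the 11943 genes with a sham mean of 2 CPM or more, 1080 met the 6 h condition and 1645 the 72 h condition, and 58 met both. The sham, 6 h and 72 h values of the 58 therefore describe how they were picked and are given without a test. Tests of 6 h and 72 h against sham are given below for other genes and as shares over all tested genes. They use the libraries that chose the 58 and are not independent of that choice.

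The hearts came from 18 male C57BL/6JR mice, 12 weeks old, 3 per group. In 5 groups the left anterior descending artery, which feeds the front wall of the left ventricle, was tied under pentobarbital, and the hearts were taken 72, 24, 6 or 1 h or 10 min later under isoflurane. The sham mice had the same operation with a suture that was passed but not tied, and are labelled 0 h, so that no sham group was matched to the later times. The design text gives a pentobarbital dose of 50 mg/kg, whereas the sample labels give 50 to 63 mg/kg, climbing with time after ligation, and none for sham. The labelled doses also climb within groups, with 52, 53 and 54 mg/kg for replicates 1, 2 and 3 at 1 h. Whether these doses were given cannot be told from the labels. By those labels dose and time cannot be told apart. RNA came from the infarcted region of the left ventricle and was captured by its poly(A) tail. The labels give cardiomyocytes as the cell type, but nothing in them describes a separation of cells, and markers of endothelial cells, macrophages and fibroblasts were counted in every library, so the samples are treated here as whole tissue. In such samples, fewer cells of a type and less RNA per cell cannot be told apart.

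As background, an artery tied in this way deprives heart muscle of oxygen within minutes, muscle cells die over the following hours, neutrophils enter on the first day, and macrophages and fibroblasts fill the damaged wall over the following days. Working heart muscle burns mostly fatty acids. Its fuel choice is set in part by nuclear receptors of the PPAR family and by glucocorticoids, stress hormones whose receptor switches on genes such as Pdk4, Per1 and Zbtb16. The heart also runs a circadian clock, in which the Per and Cry proteins repress their own transcription.

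The 18 libraries held 18199172 to 25062351 counts. The 58 genes took 0.607% to 0.647% of all counts in the sham libraries, 1.18% to 1.31% at 6 h and 0.308% to 0.354% at 72 h. Summed CPM of 12 cardiomyocyte markers (such as Myh6, Tnnt2 and Ryr2) ranged from 73173 to 77044 in sham, 57134 to 72815 at 6 h, 38586 to 58624 at 24 h and 27251 to 36253 at 72 h. Macrophage markers were at 267 to 321 CPM in sham and 4888 to 6618 CPM at 72 h, and fibroblast markers at 720 to 864 CPM and 16845 to 22225 CPM. Neutrophil markers (such as S100a8 and Csf3r) were at 5.15 to 6.87 CPM in sham, 234 to 761 CPM at 6 h, 122 to 1043 CPM at 24 h and 89.9 to 113 CPM at 72 h, and their part in the 6 h values of the 58 genes was not tested. Replicate 1 of the 6 h group stood apart: its 4 atrial muscle markers (Myl7, Myl4, Sln and Bmp10) summed to 142 CPM, against at most 4.62 CPM in every other library. Without that library, 8 of the 58 genes no longer met the rule, namely Gm10222, mt-Tl1, Per1, Thbd, Hba-a2, Klhl34, Nrap and Usp28. Replicate 3 of the 1 h group was the lowest of its 3 libraries for 38 of the 58 genes, and for 39.7% of the 16311 genes tested.

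Of the 58, 53 code for proteins, 2 are unprocessed pseudogenes, 1 is a mitochondrial tRNA and 2 are long non-coding RNAs. They were sorted by what their products do: 17 metabolic enzymes and transporters, 8 proteins of transcription and the clock, 10 of the vessel wall, matrix and cell surface, 8 of muscle structure, 7 of signalling and the cytoskeleton, 3 haemoglobin chains, and 5 mitochondrial sequences or non-coding RNAs. Some placings are loose, and the signalling group includes Galnt15, an enzyme of sugar chains. These groups were drawn up after the members were known and only order the description.

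**Figure D1:**
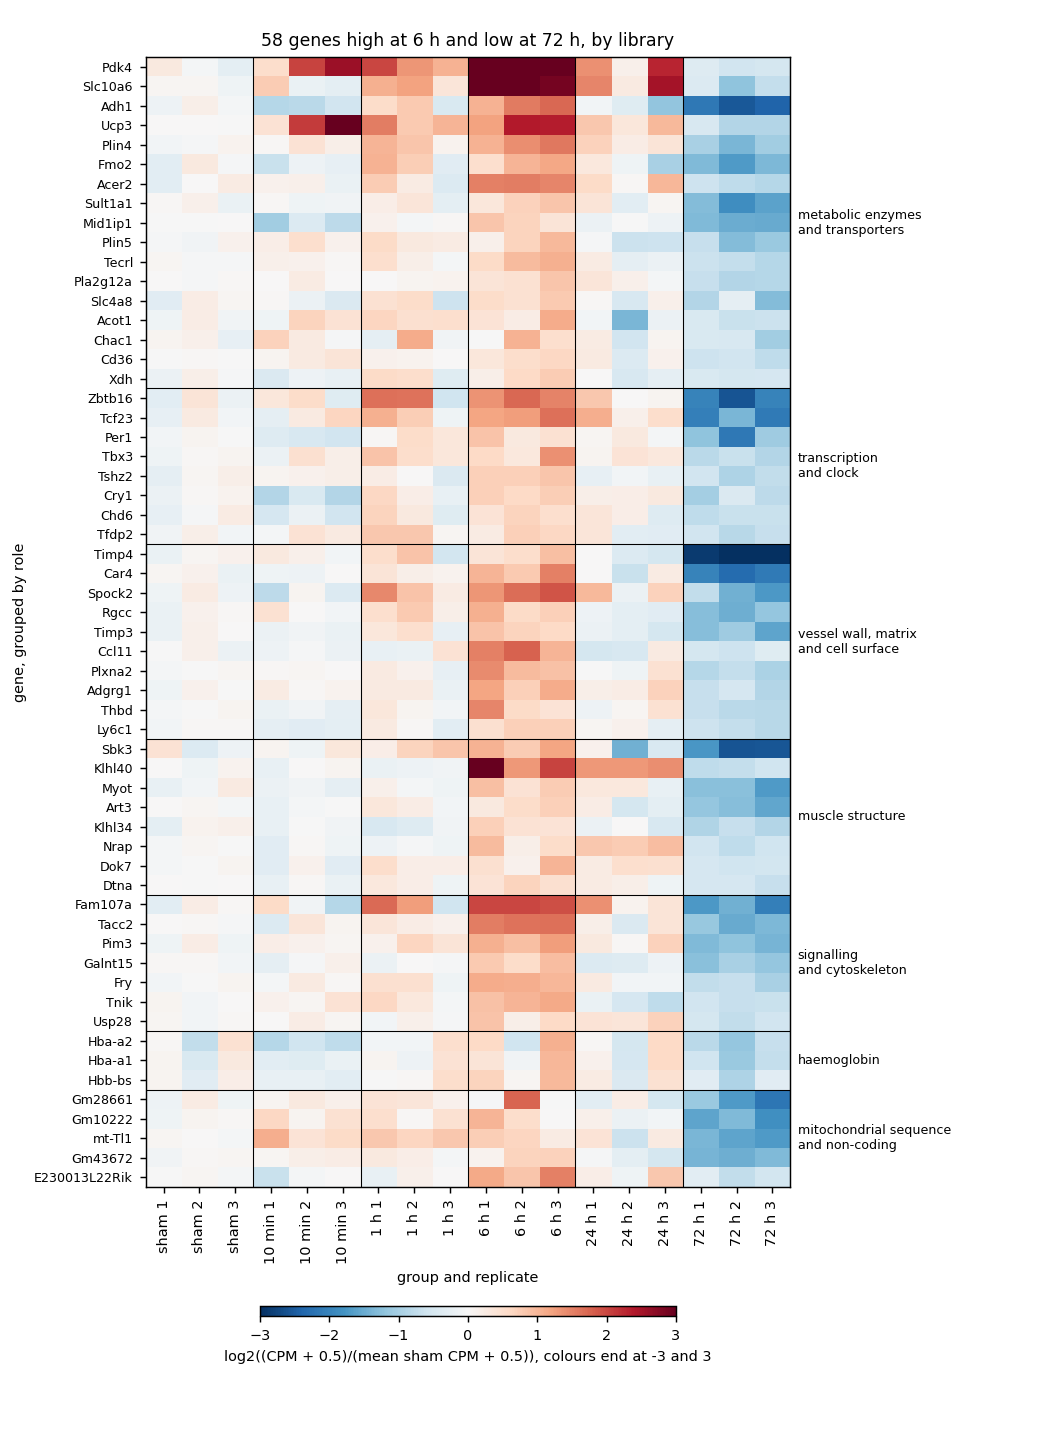
Each row is 1 of the 58 genes and each column 1 library. Colour gives the log2 ratio of the library's CPM to the mean sham CPM, both plus 0.5, with colours ending at -3 and 3. The 6 h columns are red and the 72 h columns blue because the rule asked for it, while the 10 min, 1 h and 24 h columns were not used to choose the genes.

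A small share of the genes carried in their promoters the short motifs of the glucocorticoid receptor and the clock proteins, and no PPAR motif was searched. RefSeq promoter windows (GRCm38.p6, 250 bases before to 50 after a gene's start) were found for 46 of the 58. The glucocorticoid response element, searched on both strands as GNACA and TGTNC parted by any 3 bases, occurred in the windows of 2 genes, Fam107a and Slc10a6 (4.35% of the 46), against 0.537% of 27025 genes. Both matches are shown because these genes were among those with the widest difference between 6 h and 72 h. The clock's E-box CACGTG occurred in 4 of the 46 (8.70%), against 8.09% of all genes, and 2 of these 4 were the clock genes Cry1 and Per1. The AP-1 motif TGANTCA occurred in 7 (15.2%), against 8.97%. The one in Klhl40 is shown because Klhl40 had the largest tested increase between 1 h and 24 h.
Fam107a: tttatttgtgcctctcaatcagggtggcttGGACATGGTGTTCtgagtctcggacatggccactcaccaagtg
Slc10a6: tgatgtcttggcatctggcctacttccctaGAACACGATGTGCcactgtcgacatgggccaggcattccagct
Cry1: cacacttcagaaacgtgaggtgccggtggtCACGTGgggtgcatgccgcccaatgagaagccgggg
Per1: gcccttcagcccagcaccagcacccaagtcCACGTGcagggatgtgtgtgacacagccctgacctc
Klhl40: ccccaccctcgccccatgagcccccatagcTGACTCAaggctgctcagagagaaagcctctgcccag
Capitals mark the motif, and all are written 5′ to 3′ on the gene's strand. The stretches lie at chr14:8309855-8309927 (minus strand), chr5:103629524-103629596 (minus), chr10:85185079-85185144 (minus), chr11:69098753-69098818 (plus) and chr9:121777533-121777599 (plus). No annotated exon overlapped the stretches of Fam107a, Per1, Cry1 and Slc10a6. Those of Fam107a and Per1 lie inside the gene, in front of a downstream start. The stretch of Klhl40 lies under an exon of Gm47108, a gene on the opposite strand. The heat shock element occurred in 1 of the 46 (2.17%, against 0.662%). The letters of the cyclic AMP response element, the D-box, the ERR element, the MEF2 element and the NF-kB motif were in none of the 46 windows. A match in a window is a description and not a measured binding site.

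Over all 58 genes, the median L was 0.03 at 10 min (range -0.74 to 2.19), 0.25 at 1 h (-0.31 to 1.51), 0.73 at 6 h (0.50 to 4.10), 0.08 at 24 h (-0.48 to 1.68) and -0.80 at 72 h (-3.16 to -0.50). The group with the highest mean was 6 h for 54 genes. The exceptions were Ucp3 (highest at 10 min), mt-Tl1 and Tfdp2 (1 h) and Nrap (24 h). The lowest mean was at 72 h for 57 genes, and Cry1 was lower still at 10 min. By L, most of the 58 were thus back near the sham level at 24 h: 49 lay between -0.5 and 0.5, 9 lay at or above 0.5 and 0 lay at or under -0.5. The 9 were Pdk4, Slc10a6, Klhl40, Nrap, Ucp3, Fam107a, Tcf23, Spock2 and Acer2.

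On this scale the median of all 16311 tested genes was itself -0.10 at 6 h, 0.17 at 24 h and 0.54 at 72 h. With TMM scaling, which centres the bulk of genes, those medians were -0.01, 0.01 and 0.03. The fitted log2 fold changes of the 58 genes on the TMM scale had a median of 0.86 at 6 h (0.61 to 4.21), -0.10 at 24 h (-0.67 to 1.63) and -1.43 at 72 h (-3.82 to -1.09). The split at 24 h given above therefore holds for L only. On the TMM scale Adh1 (-0.67), Sbk3 (-0.67) and Tnik (-0.66) were among those under -0.5 at 24 h, and Spock2 and Acer2 were at 0.42. With TMM scaling 188 genes would meet the same rule, and the 58 are all among them.

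The 3 libraries at 6 h all lay above the 3 sham libraries for 52 of the 58 genes, and this held for 17.2% of all tested genes. The 3 at 72 h all lay below sham for 56, against 17.7% of all tested genes. The 24 h libraries lay between those of 72 h and 6 h, with no overlap, for 37 genes, against 1.59% of all tested genes. All of these counts lean on the choice of genes, the last because it needs the 6 h libraries above those at 72 h, so nothing is read from their distance to the shares over all genes.

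**Figure D2:**
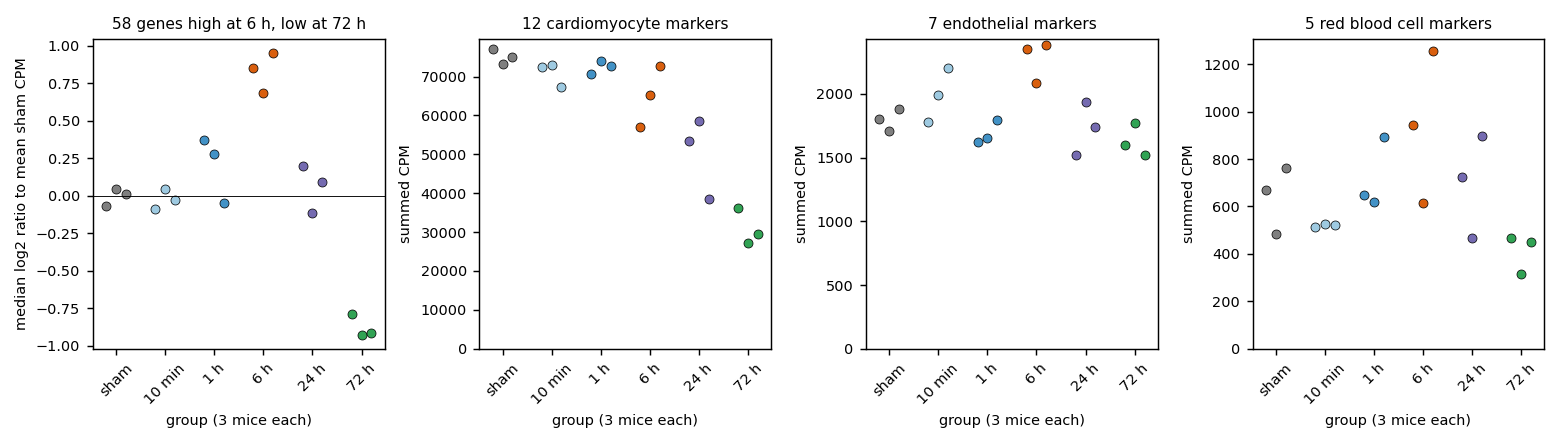
Points are single libraries, 3 mice per group. The first panel gives the median log2 ratio to the mean sham CPM over the 58 genes, and the others the summed CPM of markers of cardiomyocytes, endothelial cells and red blood cells. The 3 libraries at 72 h lie at -0.79, -0.93 and -0.92 for the 58 genes, while the cardiomyocyte markers step down at 24 h and again at 72 h.

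The cardiomyocyte markers moved with the low 72 h values. Their summed CPM relative to sham was -0.21 on the log2 scale at 6 h, -0.58 at 24 h and -1.27 at 72 h. Each of the 12 had a 72 h mean below its sham mean. Relative to that sum, the 58 genes had a median of 0.94 at 6 h and 0.47 at 72 h, and only 6 remained at or under -0.5 at 72 h: Timp4, Adh1, Sbk3, Zbtb16, Car4 and Tcf23. By the same measure 25 genes lay at or above 0.5 at 72 h. The summed endothelial markers stood at 0.34 relative to sham at 6 h, -0.05 at 24 h and -0.14 at 72 h. The 7 markers did not move together: 3 had a higher mean at 6 h than in sham, and their L at 6 h ran from -0.73 to 0.79 with a median of -0.10. Relative to their sum, 47 of the 58 stayed at or under -0.5 at 72 h. The part of these cell types in the low 72 h values was not tested.

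**Figure D3:**
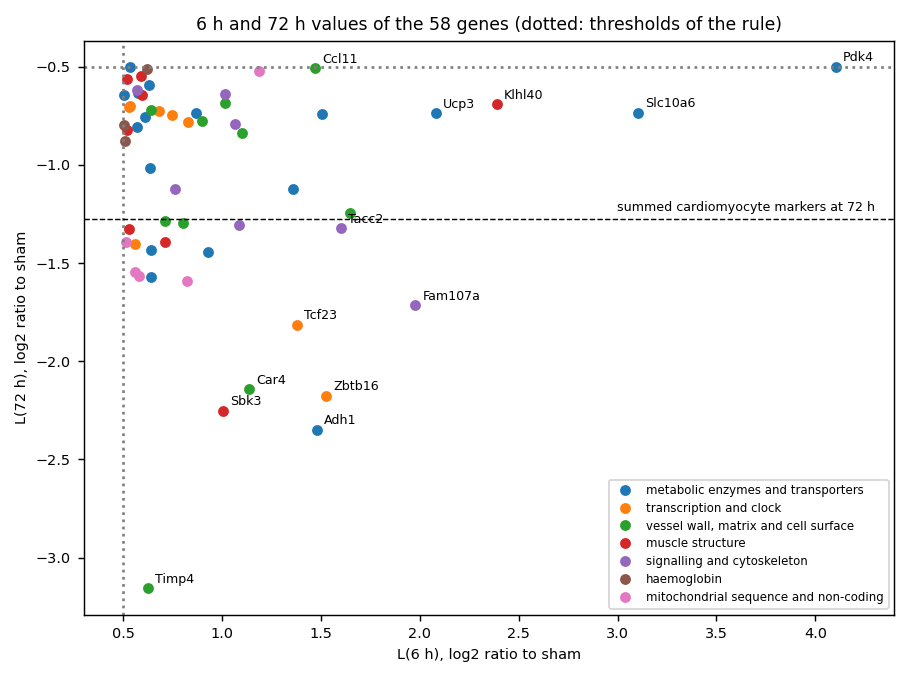
Each point is 1 of the 58 genes, with L at 6 h on the x axis and L at 72 h on the y axis, coloured by role. Dotted lines are the rule's thresholds and the dashed line the summed cardiomyocyte markers at 72 h (-1.27). Pdk4 sits at the far right on the 72 h threshold, and Timp4 (-3.16) at the bottom.

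The genes nearest the thresholds show how sharp the rule's edge is. Hba-a1 and Cd36 were just inside at 6 h, with L of 0.50, whereas Jph1 (0.496) and Irx3 (0.494) were just outside. At 72 h, Pdk4 and Xdh were just inside at -0.50, and Gpihbp1 (-0.498) and Lyve1 (-0.495) just outside. Leaving out each of the 9 sham, 6 h and 72 h libraries in turn, 29 of the 58 genes met the rule every time. The fewest, 44, did so without replicate 3 of the 6 h group.

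The metabolic genes held the widest swing of the set. Pdk4 (chr6:5483351-5496309, coordinates here and below from GENCODE M21 on GRCm38) encodes the kinase that switches off pyruvate dehydrogenase and so spares glucose. Its CPM were 153, 121 and 101 in sham, 180, 510 and 742 at 10 min, 499, 312 and 257 at 1 h, 1955, 1959 and 2562 at 6 h, 326, 138 and 608 at 24 h, and 95.0, 83.2 and 86.6 at 72 h. The 6 h libraries were far above all the others, and the 10 min and 24 h libraries were spread widely. L was 4.10 at 6 h, the highest of the 58, and -0.50 at 72 h. Pdk4 left the list when sham replicate 1, or 72 h replicate 2 or 3, was left out.

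Ucp3 (chr7:100472990-100486432), an uncoupling protein of the inner mitochondrial membrane in muscle, was early. It was at 17.2, 17.4 and 16.9 CPM in sham, 23.2, 75.3 and 143 at 10 min, 51.1, 29.9 and 35.2 at 1 h, 40.5, 92.0 and 90.8 at 6 h, 30.4, 21.7 and 34.2 at 24 h, and 12.1, 9.20 and 9.07 at 72 h. Every library at 10 min, 1 h, 6 h and 24 h lay above the sham libraries and every library at 72 h below them, while the 3 libraries at 10 min differed several-fold among themselves. Pdk4 and Ucp3 had the same order of libraries at 10 min.

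Slc10a6 (chr5:103605711-103629403), a sodium-coupled carrier of sulfated steroids, had low counts in sham (3.33, 3.29 and 2.85 CPM). It stood at 36.8, 29.8 and 26.3 CPM at 6 h, 9.61, 3.91 and 20.1 at 24 h and 2.27, 1.10 and 1.73 at 72 h. Its L values of 3.10 at 6 h and 1.68 at 24 h gave it the highest 24 h level relative to sham. Sult1a1, a sulfotransferase of phenols, stayed closer to sham at 6 h, with 46.7, 59.5 and 65.5 CPM against 37.5, 40.5 and 31.6 in sham, and was at 14.6, 9.62 and 11.7 at 72 h.

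Genes of lipid handling formed a subgroup. Cd36, the fatty acid uptake receptor, was at 1200, 1256 and 1202 CPM in sham. It stood at 1552, 1762 and 1871 at 6 h and 792, 822 and 721 at 72 h, with no overlap between the 3 groups. Plin5, a coat protein that ties lipid droplets to mitochondria, was at 110, 105 and 122 CPM in sham, 124, 180 and 221 at 6 h and 68.8, 45.4 and 51.8 at 72 h. Its neighbour on chromosome 17, Plin4, chosen here after its values were seen, had L of 1.36 at 6 h and -1.12 at 72 h. Acot1, a thioesterase of fatty acyl-CoA, had L of 0.63 and -0.59, and shares nearly its whole sequence with Acot2, so counts could be split between the copies. The 4 adipocyte markers (Adipoq, Plin1, Cidec and Retn) summed to at most 0.874 CPM in any library.

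Adh1 (chr3:138260991-138290698), an alcohol dehydrogenase that also oxidises retinol, was lower than sham at 10 min and higher at 6 h. Its CPM were 14.3, 17.9 and 15.2 in sham, 8.52, 8.72 and 10.4 at 10 min, 23.2, 27.5 and 11.4 at 1 h, 33.2, 47.7 and 53.6 at 6 h, 14.8, 12.2 and 6.61 at 24 h, and 3.21, 2.28 and 2.60 at 72 h. The 10 min, sham and 6 h libraries did not overlap. Mid1ip1, which promotes assembly of acetyl-CoA carboxylase in fatty acid synthesis, had the same dip: 177, 175 and 180 in sham, 85.7, 132 and 102 at 10 min, 194, 171 and 181 at 1 h, 318, 282 and 230 at 6 h, 156, 176 and 160 at 24 h and 71.0, 63.2 and 61.6 at 72 h. Chac1, a glutathione-degrading enzyme induced by the integrated stress response, was low throughout, and its 6 h libraries (3.98, 8.86 and 5.87 CPM) overlapped sham (4.26, 4.51 and 3.32).

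The genes of the fatty acid list were counted without those among the 58. The list holds 35 genes of fatty acid use and PPAR signalling, and 5 are among the 58 (Pdk4, Ucp3, Acot1, Cd36 and Plin5). Of the other 30, 5 were called higher and 0 lower at 6 h than in sham, against 16.3% and 12.2% of all tested genes. These calls are from edgeR's quasi-likelihood test at an adjusted p under 0.05. At 72 h, 26 of the 30 were called lower and 3 higher, against 32.2% and 34.2%. The count of 5 is near the share over all genes, but it leaves out the members, which were chosen for being high at 6 h. Leaving out members can lower the counts higher at 6 h and lower at 72 h, here and on every list that holds some. Nothing is therefore read from the distance of these counts to the shares over all genes. Acadm, an enzyme of fatty acid oxidation picked here after its values were seen, had a mean CPM of 1134 in sham, 994 at 6 h and 411 at 72 h.

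Among the transcription factors, Zbtb16 (chr9:48654297-48836222), a zinc finger repressor and a known glucocorticoid target, had the lowest 72 h level relative to sham. Its CPM were 34.4, 55.7 and 38.0 in sham, 53.8, 63.2 and 33.1 at 10 min, 136, 133 and 28.0 at 1 h, 110, 142 and 120 at 6 h, 75.5, 43.2 and 45.4 at 24 h, and 10.2, 6.67 and 10.3 at 72 h. At 1 h, replicates 1 and 2 were already at the 6 h level and replicate 3 was under every sham library. Tcf23, a basic helix-loop-helix factor, was at 3.19, 4.80 and 3.66 CPM in sham, 9.49, 9.88 and 13.4 at 6 h and 0.556, 1.18 and 0.501 at 72 h.

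Per1 (chr11:69095217-69109960), a clock repressor that also answers glucocorticoids, was at 73.2, 81.9 and 77.1 CPM in sham, 59.0, 55.5 and 51.6 at 10 min, 79.4, 114 and 98.4 at 1 h, 141, 95.2 and 107 at 6 h, 80.9, 95.6 and 74.5 at 24 h and 33.1, 17 and 36.6 at 72 h. Cry1 (chr10:85131700-85185064), its partner, was at 13.1, 15.2 and 16.0 in sham, 7.80, 10.6 and 7.78 at 10 min, 22.8, 17.1 and 12.5 at 1 h, 24.4, 22.8 and 24.9 at 6 h, 16.7, 17.2 and 18.2 at 24 h and 7.01, 10.8 and 8.43 at 72 h. Both lay below all sham libraries at 10 min and above them at 6 h.

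Of the other 20 genes on the clock list, 5 were called higher and 5 lower than sham at 6 h, and 3 higher and 13 lower at 72 h (edgeR, adjusted p under 0.05), against 16.3% higher and 12.2% lower of all tested genes at 6 h, and 34.2% and 32.2% at 72 h. Per3, named after its values were seen, was called lower at 6 h and at 72 h, and had a mean of 46.4 CPM in sham against 14.9 at 6 h and 5.35 at 72 h. The labels do not give the hour of day of the operations or collections, and its part in the clock genes' values was not tested.

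The glucocorticoid list holds 20 genes, of which Pdk4, Zbtb16, Per1 and Sult1a1 are among the 58. Of the other 16, 13 were called higher and 0 lower than sham at 6 h, against 16.3% and 12.2% of all tested genes. At 72 h, 5 of the 16 were called higher and 4 lower (edgeR, adjusted p under 0.05), against 34.2% and 32.2%. Fkbp5, a chaperone partner of the glucocorticoid receptor, had a mean of 20.8 CPM in sham, 185 at 6 h and 51.0 at 72 h, and was called higher at 6 h but not at 72 h. Klf15, with means of 49.0, 43.6 and 14 CPM, was called lower at 72 h but not called at 6 h. Both were picked after their values were seen. The list also holds Lcn2, which is among the neutrophil markers as well. On the list of early response factors and mRNA decay, 33 of 36 genes were called higher and 0 lower at 6 h. On that of ribosome biogenesis, 23 of 26 were called higher and 0 lower. Both lists hold none of the 58 and are named after their values were seen. The part of glucocorticoids in these values was not tested.

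Genes of the vessel wall and matrix included the lowest 72 h value of all. Timp4 (chr6:115241892-115252205), an inhibitor of metalloproteinases that is abundant in the heart, was at 62.6, 75.5 and 78.8 CPM in sham, 88.8, 81.0 and 68.0 at 10 min, 105, 130 and 49.5 at 1 h, 94.0, 105 and 136 at 6 h, 73.2, 53.9 and 50.2 at 24 h, and 9.41, 5.78 and 7.79 at 72 h. Every 72 h library was under every library of the other groups, with L of -3.16. Timp3, the matrix-bound inhibitor of the same family, was at 199, 252 and 230 in sham, 413, 363 and 343 at 6 h and 93.9, 109 and 75.8 at 72 h.

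Car4 (chr11:84957786-84966044), a carbonic anhydrase anchored on capillary surfaces, was at 23.6, 24.6 and 19.8 CPM in sham, 46.6, 39.5 and 65.2 at 6 h and 5.30, 4.18 and 4.79 at 72 h. Rgcc, a regulator of the cell cycle that is high in endothelial cells, was at 44.3, 55.8 and 52.2 in sham, 107, 75.9 and 84.0 at 6 h and 20.7, 17.9 and 22.5 at 72 h. The L values of Car4 (-2.14) and Rgcc (-1.30) at 72 h were well below that of the summed endothelial markers (-0.14). Of the other 21 genes on the endothelial list, 5 were called higher and 3 lower at 6 h, and 0 higher and 16 lower at 72 h (edgeR, adjusted p under 0.05). The shares over all tested genes were 16.3% and 12.2% at 6 h and 34.2% and 32.2% at 72 h. The other 7 genes of this group, Timp3 among them, had L of 0.64 to 1.65 at 6 h and -1.28 to -0.51 at 72 h. They include the receptors Plxna2 and Adgrg1, the clotting regulator Thbd, and Ly6c1, whose reads could be split with its near copy Ly6c2.

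Klhl40 and Nrap, both muscle genes, stayed high at 24 h. Klhl40 (chr9:121777607-121783818) protects thin-filament proteins from degradation and is mutated in nemaline myopathy. It was at 14.8, 13.4 and 15.8 CPM in sham, 12.5, 14.8 and 15.5 at 10 min, 12.6, 13.2 and 13.7 at 1 h, 139, 36.6 and 61.6 at 6 h, 36.8, 37.1 and 39.5 at 24 h, and 8.47, 8.69 and 9.48 at 72 h. The highest library, at 139 CPM, was the 6 h replicate with atrial markers, and the other 2 at 6 h were still above all sham libraries. Nrap (chr19:56320035-56390037), which anchors new myofibrils at the intercalated disc, was at 408, 444 and 421 in sham, 335, 435 and 386 at 10 min, 384, 413 and 387 at 1 h, 826, 475 and 623 at 6 h, 739, 718 and 807 at 24 h, and 285, 250 and 279 at 72 h. Its 24 h libraries lay above every sham, 10 min and 1 h library.

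Myot, the Z-disc protein myotilin, was at 22, 24.3 and 30.9 CPM in sham, 48.6, 35.0 and 43.7 at 6 h and 10.6, 10.4 and 7.52 at 72 h. Sbk3, a kinase related to an SH3-binding family, had low counts, at 9.44, 4.99 and 6.04 in sham, 14.6, 11.9 and 16.1 at 6 h and 1.67, 0.717 and 0.729 at 72 h. On the list of stretch and Z-disc stress genes, Nrap and Myot are among the 58. Of the other 21, 15 were called higher and 1 lower at 6 h, and 8 higher and 5 lower at 72 h (edgeR, adjusted p under 0.05). On the sarcomere list, which held none of the 58, 4 of 27 were called higher and 2 lower at 6 h, and 0 higher and 26 lower at 72 h. Both lists stand against 16.3% higher and 12.2% lower of all tested genes at 6 h, and 34.2% and 32.2% at 72 h.

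In the signalling group, Fam107a (chr14:8296274-8318023), an actin-binding protein induced by glucocorticoids, was at 5.28, 7.85 and 6.85 CPM in sham, 10.1, 6.16 and 3.46 at 10 min, 22.6, 16.5 and 4.22 at 1 h, 28.0, 28.3 and 26.8 at 6 h, 17.9, 7.14 and 8.80 at 24 h and 1.67, 2.15 and 1.23 at 72 h. Its 1 h libraries divided as those of Zbtb16 did, with replicate 3 low. Usp28, a deubiquitinase, was at 111, 102 and 109 in sham, 196, 120 and 162 at 6 h and 73.9, 63.7 and 71.3 at 72 h. With Klhl40 it is on the list of muscle ubiquitin ligases and autophagy, where 5 of the other 30 were called higher and 5 lower at 6 h, and 1 higher and 26 lower at 72 h (edgeR, adjusted p under 0.05). On the list of the unfolded protein and integrated stress responses, which holds Chac1, 10 of the other 24 were called higher and 0 lower at 6 h, and 17 higher and 4 lower at 72 h. Over all tested genes, 16.3% were called higher and 12.2% lower at 6 h, and 34.2% and 32.2% at 72 h. The 6 h counts of the ubiquitin ligase list were near those shares, but they leave out Klhl40 and Usp28, which the rule chose.

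**Figure D4:**
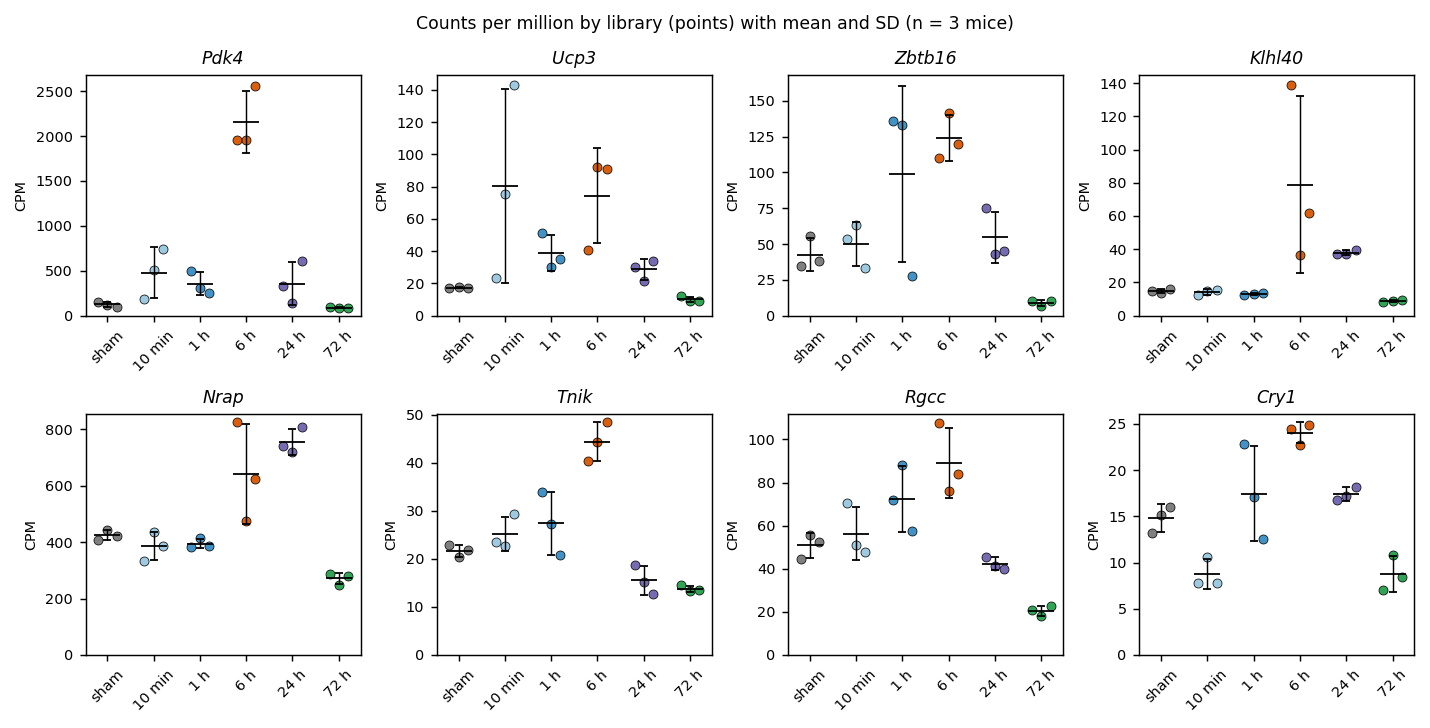
CPM of 8 of the 58 genes by group, with each library as a point and the mean and SD of 3 mice as a bar. Pdk4 stands above all other groups at 6 h, Ucp3 is spread widely at 10 min, Klhl40 and Nrap are still above sham at 24 h, and Tnik and Rgcc are below their 1 h libraries at 24 h.

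Of the 58 genes, the mitochondrial copy Gm28661, the haemoglobin chain Hbb-bs and the tRNA mt-Tl1 had the highest levels per unit of transcript length. In the deposited FPKM (fragments scaled to transcript length and library total), Gm28661 averaged 1153 in sham, Hbb-bs 396 and mt-Tl1 390. Gm28661 (chr1:24614885-24615565) and Gm10222 are nuclear copies of mitochondrial DNA, and their reads cannot be told apart from the mitochondrial originals. Gm28661 was at 702, 931 and 723 CPM in sham and 767, 2619 and 785 at 6 h, so replicate 2 alone set its 6 h mean, and without that library it left the list. Its 72 h libraries, at 364, 240 and 175, were all below sham.

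The mitochondrial leucine tRNA mt-Tl1 (chrM:2676-2750) was at 30.5, 29.3 and 28.0 CPM in sham, 62.9, 39.2 and 44.1 at 10 min, 51.7, 46.2 and 51.6 at 1 h, 49.3, 45.9 and 34.9 at 6 h, 39.0, 18.4 and 35.3 at 24 h and 11.1, 9.37 and 8.71 at 72 h. Every library at 10 min, 1 h and 6 h was above sham, and every one at 72 h below. The reads counted for mt-Tl1 come from RNA captured by its poly(A) tail. Whether they came from the tRNA itself or from longer mitochondrial transcripts was not tested. The haemoglobin chains Hba-a1, Hba-a2 and Hbb-bs had 6 h libraries that overlapped sham: Hbb-bs was at 324, 242 and 347 in sham, 486, 319 and 601 at 6 h and 242, 160 and 239 at 72 h. They are themselves 3 of the 5 red blood cell markers, whose sum ranged from 485 to 761 CPM in sham, 615 to 1258 at 6 h and 316 to 469 at 72 h. They have near-identical copies, and how much blood each piece of tissue held was not measured.

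The libraries at 10 min, 1 h and 24 h took no part in the choice, so comparisons among them were tested for every gene with edgeR's quasi-likelihood test, with Benjamini-Hochberg adjustment over 16311 genes. All 58 had passed its filter on low counts. Between 1 h and 24 h more of the 58 fell than rose. At an adjusted p under 0.05, 19 were lower at 24 h and 2 higher, against 20.5% lower and 24.1% higher of all tested genes, and 37 were not called. The rule asked for a sham mean of 2 CPM or more, and of the 11943 genes with such a mean, 24.985% were lower and 24.265% higher. The median fitted log2 change of the 58 was -0.45, against 0.02 over all tested genes. Below 0 were 51 of the 58 and 7902 of the 16311 tested genes. Scaling by library totals gave 11 lower and 3 higher, against 10.5% lower and 35.8% higher of all genes in that fit. The lower count was 12 without replicate 1 of the 1 h group (17% of all genes in that fit) or replicate 2 of the 24 h group (18.4%). It was 25 without replicate 3 of the 1 h group (17.2%). In CPM, all 24 h libraries were below all 1 h libraries for 6 genes (Sbk3, mt-Tl1, Rgcc, Tnik, Plin5 and Acot1; 12.9% of all tested genes) and above them for 3 (Klhl40, Nrap and Usp28; 39.6%).

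Tnik (chr3:28263214-28675858), a kinase that acts in Wnt and JNK signalling, had the smallest adjusted p. It was at 34.0, 27.4 and 20.9 CPM at 1 h and 18.7, 15.3 and 12.7 at 24 h, with no overlap, and the fitted log2 change was -1.03 ± 0.16 (SE; edgeR adjusted p = 9.03e-05). Rgcc (chr14:79288756-79301645) was at 72.1, 88.1 and 57.3 CPM at 1 h and 45.6, 41.5 and 40.1 at 24 h, a change of -0.99 ± 0.19 (edgeR adjusted p = 0.000679). For both genes the wider spread was at 1 h.

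Timp3 (chr10:86300372-86349506) fell by 0.78 on the log2 scale, with 289, 323 and 192 CPM at 1 h and 200, 186 and 157 at 24 h, where the lowest 1 h library lay under the highest at 24 h (edgeR adjusted p = 0.00167). The long non-coding RNA Gm43672 (chr3:22074412-22076142) fell by 0.64, from 31.6, 29.5 and 24.7 CPM to 25.1, 20.7 and 17.7 (edgeR adjusted p = 0.00162), and its groups overlapped slightly. Plin5 fell by 1.00, from 167, 138 and 133 CPM to 109, 71.2 and 72.4, with no overlap (edgeR adjusted p = 0.00168). The other genes that fell were Adh1, Timp4, Sbk3, Fmo2, mt-Tl1, Mid1ip1, Galnt15, Fry, Art3, Tbx3, Tecrl, Tfdp2, Acot1 and Xdh, of which Fmo2, Fry, Art3, Tbx3, Tecrl, Tfdp2, Acot1 and Xdh are named only to complete the count. Timp4 (-0.89, edgeR adjusted p = 0.0209) was no longer called when replicate 1 or 2 of the 1 h group, or replicate 2 or 3 of the 24 h group, was left out, or when libraries were scaled by their totals (-0.68, edgeR adjusted p = 0.0604). Mid1ip1 (-0.37, edgeR adjusted p = 0.0279) was no longer called without replicate 1 or 3 of the 1 h group, or replicate 2 or 3 of the 24 h group. Scaled by library totals, its change was -0.15 (edgeR adjusted p = 0.363), and limma on log2(FPKM + 1) gave -0.15 (adjusted p = 0.383).

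Klhl40 and Nrap, both muscle genes, went the other way. Klhl40 rose by 1.30 ± 0.34 on the log2 scale between 1 h and 24 h (edgeR adjusted p = 0.00707) and Nrap by 0.72 ± 0.16 (edgeR adjusted p = 0.00145). The libraries of the 2 times did not overlap for either gene, and both calls held when any single 1 h or 24 h library was left out. By role, the genes that fell were 7 of the 17 metabolic genes, 3 of 10 in the vessel wall group, 2 of 8 in transcription, 2 of 8 in muscle structure, 3 of 7 in signalling (Galnt15 among them), 2 of 5 among mitochondrial and non-coding sequences and 0 of 3 haemoglobin chains. Over all tested genes, 20.5% fell. The groups are small and were drawn up after the members were known, so no difference between roles is read from these counts. The haemoglobin chains had fitted changes of -0.28 to -0.20.

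**Figure D5:**
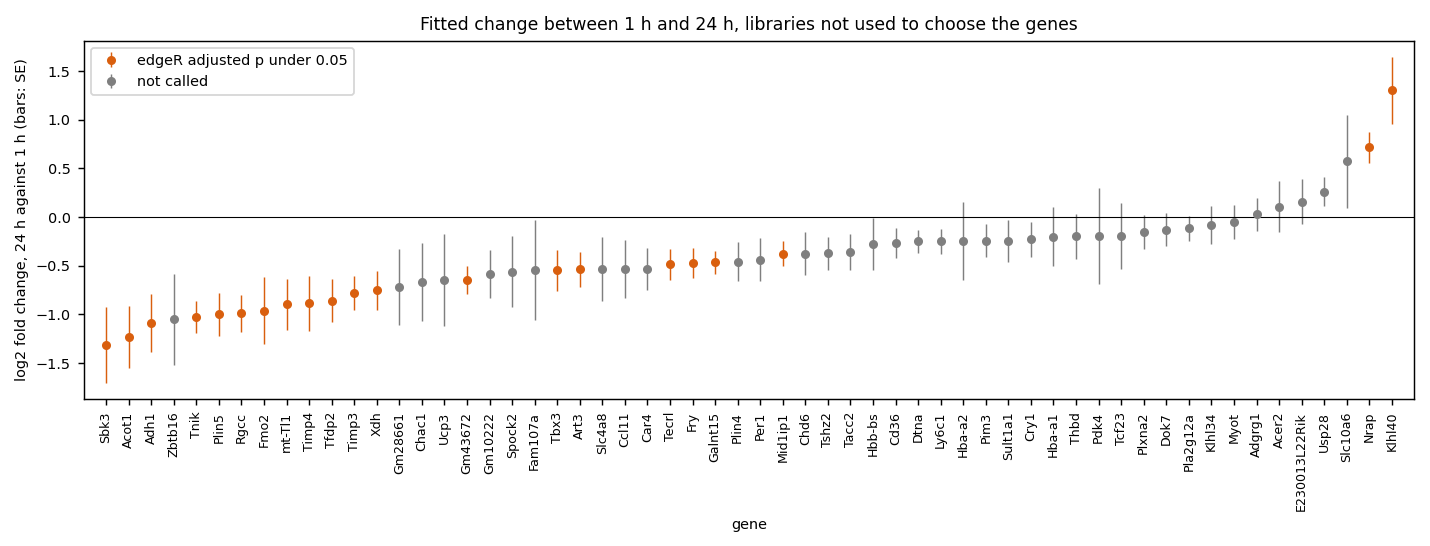
Fitted log2 fold change of each of the 58 genes at 24 h against 1 h, in order of size, with the SE as a bar. Orange points passed the edgeR test at an adjusted p under 0.05. Klhl40 (1.30) and Nrap (0.72) are at the right end, and 51 of the 58 points lie below 0, against 7902 of the 16311 tested genes.

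Other genes that shared only 1 part of the pattern had other changes between 1 h and 24 h. For the 1022 genes that were high at 6 h but not low at 72 h, the median change was 0.72, with 63.4% called higher and 3.91% lower. For the 1587 genes that were low at 72 h but not high at 6 h, it was -0.64, with 79.8% called lower and 0.315% higher. The 58 genes, at 32.8% lower and 3.45% higher, lay between these sets in the share called lower. The 516 genes of the opposite pattern, low at 6 h and high at 72 h, had a median of -0.08. These are descriptions, and the differences between the sets were not tested.

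Against 10 min, which shares the 24 h libraries with the comparison above, 5 of the 58 were higher at 24 h and 10 lower, against 22.5% higher and 19.8% lower of all tested genes. Among the 11943 genes with a sham mean of 2 CPM or more, 22.5% were higher and 24.1% lower. The median of the 58 was -0.07. Scaling by library totals gave 8 higher and 6 lower, against 32.1% higher and 11% lower of all genes in that fit. The higher count was 3 without replicate 3 of the 10 min group (18.5% of all genes in that fit) and 8 without replicate 2 of the 24 h group (20.7%). The lower count was 6 without replicate 1 of the 10 min group (16.7%) and 17 without replicate 1 of the 24 h group (20.3%).

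The genes that rose were Nrap (0.79 ± 0.16, edgeR adjusted p = 0.000711), Cry1 (0.81 ± 0.18, edgeR adjusted p = 0.00192), Klhl40 (1.23 ± 0.34, edgeR adjusted p = 0.0102), Mid1ip1 (0.44 ± 0.13, edgeR adjusted p = 0.0123) and Slc10a6 (1.44 ± 0.50, edgeR adjusted p = 0.0327). For Cry1, Klhl40, Nrap and Mid1ip1 the 24 h libraries all lay above the 10 min libraries, whereas those of Slc10a6 overlapped. The call of Slc10a6 was lost without replicate 2 or 3 of the 10 min group or replicate 3 of the 24 h group, and that of Mid1ip1 without replicate 1 or 3 of the 10 min group.

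The 10 that fell were led by Tnik (-0.86 ± 0.16, edgeR adjusted p = 0.000411), Gm43672 (-0.61, edgeR adjusted p = 0.00268), Plin5 (-0.87, edgeR adjusted p = 0.00445) and Galnt15 (-0.44, edgeR adjusted p = 0.00607), an enzyme that starts O-linked sugar chains. Galnt15 was at 49.3, 58.2 and 65.9 CPM at 10 min and 44.6, 45.7 and 53.9 at 24 h, so its groups overlapped in CPM. It was not called in either 24 h comparison when libraries were scaled by their totals. The fall of Ucp3 (-1.63 ± 0.48, edgeR adjusted p = 0.0147) rested on the high 10 min libraries and was not called without replicate 3 of that group (-0.96) or replicate 2 of the 24 h group.

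Rgcc (-0.60, edgeR adjusted p = 0.0188), mt-Tl1 (-0.83, edgeR adjusted p = 0.0191), Cd36 (-0.39, edgeR adjusted p = 0.0458), Acot1 and Tshz2 made up the rest. The last 2 are named to complete the count. Rgcc lost its call without replicate 1 of the 10 min group (-0.36) or replicate 2 or 3 of the 24 h group, and with library totals (-0.41, edgeR adjusted p = 0.0547). The tRNA mt-Tl1 lost it without replicate 1 of the 10 min group. Cd36 lost it when any library of the 10 min group, or replicate 2 or 3 of the 24 h group, was left out. Its change was -0.19 (edgeR adjusted p = 0.238) without replicate 2 of the 24 h group and -0.23 (edgeR adjusted p = 0.187) with library totals. In all, 10 of the 58 were called in both 24 h comparisons, and only Mid1ip1 had opposite directions, since it was lowest at 10 min among these 3 times. Its fall from 1 h was not called with library totals, as given above.

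Between 10 min and 1 h, 2 of the 58 rose and 0 fell, against 0.251% and 0.0552% of all tested genes. At an unadjusted p under 0.05, edgeR had 16 higher and 0 lower. DESeq2 called 5 higher and 0 lower after adjustment, against 0.603% and 0.203% of all genes in that fit. The median fitted change was 0.29, against -0.01 over all tested genes. Of the 58, 50 were above 0, whereas 8615 of the 16311 tested genes were below 0. Mid1ip1 rose by 0.82 ± 0.13 (edgeR adjusted p = 0.00892) and Cry1 by 1.03 ± 0.18 (edgeR adjusted p = 0.014), and in both every 1 h library lay above every 10 min library. Both calls were lost without replicate 1 or replicate 3 of the 10 min group, and that of Cry1 also without replicate 1 of the 1 h group. Without replicate 3 of the 1 h group 4 genes were called higher, against 0.215% of all genes in that fit. Zbtb16 (1.01 ± 0.47, edgeR adjusted p = 0.674) and Fam107a (1.16 ± 0.53, edgeR adjusted p = 0.668) had fitted changes as large but did not pass, and their 1 h libraries were the ones that divided.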

How the data were processed

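The authors' deposited table held raw counts per gene for 18 libraries, with FPKM beside them. Per the submitters' processing notes, cutadapt 1.18, HISAT2 2.1.0 and featureCounts were used with mm10; the annotation, the strand setting and the treatment of reads with several matches are not given in the sources used here. No molecular identifiers are described. FPKM deposited by the authors served only for levels between genes and for 1 alternative; 2 of their columns, 6 h replicates 2 and 3, matched each other's counts, so only group means were used. Symbols came from GENCODE M21, which matched 30512 of 30583 IDs.

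From the counts, CPM and L were computed as described, and edgeR 4.0.16 (R 4.3.3; filterByExpr, TMM, glmQLFit with robust estimation, glmQLFTest, two-sided) was fitted to 6 group means over all 18 libraries, 16311 genes passing the filter. The same fit was also run on simulated counts in which only chosen genes were changed, at 24 h. Against 1 h it called 52.2% of changes of 0.58 on the log2 scale, 80.6% of 1 and 97.0% of 2. It made 11 false calls among 15906 genes. Replicates are separate mice; the labels give no batch. Same-numbered libraries of different groups had correlated deviations of -0.0768 to 0.0863, so the numbers were not taken to pair them.

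The 58 genes and the gene and marker lists were chosen with earlier results of these data known. Named genes were the 10 with the widest L(6 h) minus L(72 h), the called genes with the smallest adjusted p in each comparison (mean count of at least 50), the members of each of 24 gene lists (at most 4 per list), those nearest the thresholds and the 3 with the highest FPKM. Genes named outside this rule were picked after their values were seen or to complete a count. Alternatives tried were DESeq2 1.42.0, RLE and library size scaling, limma 3.58.1 on log2(FPKM + 1), other filters, only the compared libraries, a replicate block, leaving out each library, and other settings of the selection rule.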

Additional observations from a re-analysis of the deposited data

How the results depend on the processing

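Alternatives were computed for 30 tested changes of 19 named genes, and none of these changed direction: of 420 values, 366 kept their call or its absence and 54 lost the call. With only the 6 compared libraries in the fit, Adh1, Timp4 and Sbk3 at 24 h against 1 h, Slc10a6, Cd36, Ucp3 and mt-Tl1 at 24 h against 10 min and Cry1 at 1 h against 10 min were not called. With no filter on low counts, Timp4 lost its call against 1 h, and Slc10a6, Rgcc and mt-Tl1 lost theirs against 10 min. In what follows, percentages in brackets are the share of all genes called in the same fit. Between 1 h and 24 h, the 19 genes called lower became 11 with library size scaling (10.5%) and 10 with limma on log2(FPKM + 1) (10.6%). They became 12 to 25 when single libraries were left out (14.6% to 21.2%). The 2 called higher became 2 to 3 over all alternatives (12% to 35.8%). Between 10 min and 24 h, the 5 called higher became 8 with library size scaling (32.1%) and 9 with limma (30.8%). They became 3 to 8 without single libraries (17.3% to 24%). The 10 called lower became 6 with library size scaling (11%), 5 with limma (11.2%) and 6 with no filter on low counts (8.96%). Without single libraries they became 6 to 17 (13.8% to 20.3%). Between 10 min and 1 h, the 2 called higher became 5 with DESeq2 (0.603%) and 0 to 4 without single libraries (0.0358% to 0.215%). The cause of these shifts was not tested. With the replicate number as a block, the counts at 24 h against 1 h were 21 lower (20.4%) and 2 higher (23.7%). Against 10 min they were 11 lower (19.8%) and 5 higher (22.2%) at 24 h, and 0 lower (0.049%) and 2 higher (0.239%) at 1 h. The 58 genes became 188 with TMM scaling, 10 with thresholds of 1 and -1, and 51 to 65 without single libraries. With 3 mice per group, a gene that was not called may still have changed.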
